A study of Mus musculus with 8 samples.

Results

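The genes described here are the receptor genes of GDNF (glial cell line-derived neurotrophic factor) and genes linked to GDNF signalling in male germline stem cells, namely Gfra1, Ret, Etv5, Bcl6b, Lhx1, Id4, Pou3f1, T, Cxcr4 and Egr2. They were picked by symbol, and all 10 have a row among the 14853 genes of the authors' comparison. Total RNA was sequenced from undifferentiated spermatogonia of C57BL/6 mice aged 8 to 12 weeks, sorted 7 days after tamoxifen injection. The tested mice had the genotype TERTCreER/flox:Rosalsl-Tdtomato/+ (CreER/flox, 4 samples), in which a loxP-flanked Tert allele stands opposite CreER. The mice they were set against had the genotype TERTCreER/+:Rosalsl-Tdtomato/+ (CreER/+, 4 samples). Tert encodes the reverse transcriptase of telomerase, CreER is a Cre recombinase that tamoxifen activates, and tdTomato is a red reporter that fluoresces once Cre has acted. Both groups carried CreER at 1 Tert allele, received tamoxifen and were sorted for high MCAM, no KIT and tdTomato, so the CreER/+ mice were not wild type, although WT is the word the authors' table uses for them. The sort took only cells in which CreER had acted. No label says whether animals were pooled.

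GDNF is secreted by somatic cells of the testis, mainly Sertoli cells, and keeps spermatogonial stem cells dividing without differentiating. It binds GFRA1, a receptor anchored to the outer face of the cell membrane, which then engages the tyrosine kinase RET. RET signals through SRC family kinases, the PI3K and AKT pathway and the RAS and ERK pathway, and in cultured mouse spermatogonia this raises transcripts of Etv5, Bcl6b, Lhx1, Egr2 and Pou3f1, among others. T, which encodes brachyury, lies downstream of ETV5 in such cultures.

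Several of these genes encode factors that bind DNA or block those that do, so their promoters were searched for each other's sites. RefSeq promoter windows (GRCm38.p6, 250 bases before to 50 bases after an annotated gene start) were found for 7 of the 10 genes, in 12 windows. Gfra1, Etv5, Egr2 and T are shown because their windows held a match. Capitals mark CAGCTG, an E-box of the kind bound by the E proteins that ID4 sequesters, or ATGCAAAT, the octamer bound by POU factors such as POU3F1. Sequences are given 5′ to 3′ on the strand of the gene.
Gfra1: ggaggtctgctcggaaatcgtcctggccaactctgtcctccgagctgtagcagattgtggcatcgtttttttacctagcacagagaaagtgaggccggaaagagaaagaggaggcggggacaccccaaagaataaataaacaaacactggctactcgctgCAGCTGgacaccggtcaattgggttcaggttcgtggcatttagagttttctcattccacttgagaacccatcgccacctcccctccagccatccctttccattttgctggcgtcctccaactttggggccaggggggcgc
Etv5: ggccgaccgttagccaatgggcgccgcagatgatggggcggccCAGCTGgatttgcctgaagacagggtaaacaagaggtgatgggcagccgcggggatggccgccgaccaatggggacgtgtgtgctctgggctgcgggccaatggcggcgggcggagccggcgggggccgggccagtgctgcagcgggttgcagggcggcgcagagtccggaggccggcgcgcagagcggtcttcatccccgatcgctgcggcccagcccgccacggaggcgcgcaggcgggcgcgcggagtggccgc
T: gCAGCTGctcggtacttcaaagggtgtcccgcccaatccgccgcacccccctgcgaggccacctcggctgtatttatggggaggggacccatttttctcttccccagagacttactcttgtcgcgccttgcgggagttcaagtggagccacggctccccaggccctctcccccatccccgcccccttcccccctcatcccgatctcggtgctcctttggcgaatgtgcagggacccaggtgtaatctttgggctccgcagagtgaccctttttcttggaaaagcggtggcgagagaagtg
Egr2: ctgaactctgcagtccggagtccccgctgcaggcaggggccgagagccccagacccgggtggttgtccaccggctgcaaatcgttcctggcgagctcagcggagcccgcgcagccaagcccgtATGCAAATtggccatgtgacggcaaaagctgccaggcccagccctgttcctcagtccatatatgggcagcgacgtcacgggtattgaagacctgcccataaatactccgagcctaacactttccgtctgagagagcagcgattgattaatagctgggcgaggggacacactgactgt

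These windows lie at chr19:58455349-58455648 on the minus strand for Gfra1, chr16:22439521-22439820 on the minus strand for Etv5, chr17:8434173-8434472 on the plus strand for T and chr10:67537619-67537918 on the plus strand for Egr2. The E-box began 90 bases before the annotated start at base 58455398 in Gfra1, 207 bases before the start in Etv5 and 249 bases before it in T. It was present in 16.3% of all 32851 promoter windows of the same length. The octamer began 127 bases before the annotated Egr2 start at base 67537869, and the motif was present in 1.74% of all windows. It is a single site that 2 further, overlapping Egr2 windows also hold. The windows of the Egr2 starts further upstream, at 67535499 and 67537566, do not hold it. The Gfra1 and Egr2 starts used here lie inside the spans of these genes, which begin further upstream. No member window held CCGGAAG (an ETS site, as ETV5 binds, in 8.86% of all windows), GCGTGGGCG (EGR, 0.612%), TCACACCT (T-box, 1.28%) or TAATTA (homeodomain, 5.29%). Both strands were searched, and the marked motifs did not overlap another of the 6. A match is a description of letters, and the expression data do not bear on binding.

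Receptor and ETS factor transcripts were among the more abundant messages of these cells, while T and Cxcr4 were scarce. Levels are mean normalized counts over all libraries of both genotypes, from the authors' deposited table, divided by the length of the longest annotated transcript, so they carry no spread over samples. Etv5 stood at 592, Gfra1 at 557 and Ret at 536 counts per kb, above 94.3%, 93.7% and 93.3% of 13694 protein-coding genes. Gfra1 and Ret, whose products form the receptor together, differed by a factor of 1.04. Egr2 followed at 317 counts per kb, Id4 at 178 and Bcl6b at 143. Pou3f1 stood at 67.5 counts per kb, close to the protein-coding median of 67.8. Lhx1 (41.8), Cxcr4 (35.9) and T (24.3 counts per kb) lay below that median, with T above 26.6% of protein-coding genes. The order of the 10 genes was the same when the summed length of all exons was used, but whether neighbours in it differ beyond the spread over libraries was not tested.

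Set against their relatives, Gfra1 was the predominant GDNF family co-receptor transcript, at 55.0 times the level per kb of Gfra2, 37.5 times that of Gfra3 and 22.5 times that of Gfra4. Those relatives encode the co-receptors for neurturin, artemin and persephin. Etv5 stood at 3.90 times the level per kb of its relative Etv4, Bcl6b at 2.90 times that of Bcl6 (4.47 with the summed length of all exons), Id4 at 5.20 times that of Id3 and Pou3f1 at 7.83 times that of Pou3f2. Elsewhere a relative was higher: Lhx1 was at 0.410 times the level per kb of Lhx2, Egr2 at 0.583 times that of Egr4 and 0.972 times that of Egr1, and T at 0.293 times that of Eomes, another T-box gene of undifferentiated spermatogonia. Id1, Id2 and Etv1 had no row and were not analysed here.

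**Figure D1:**
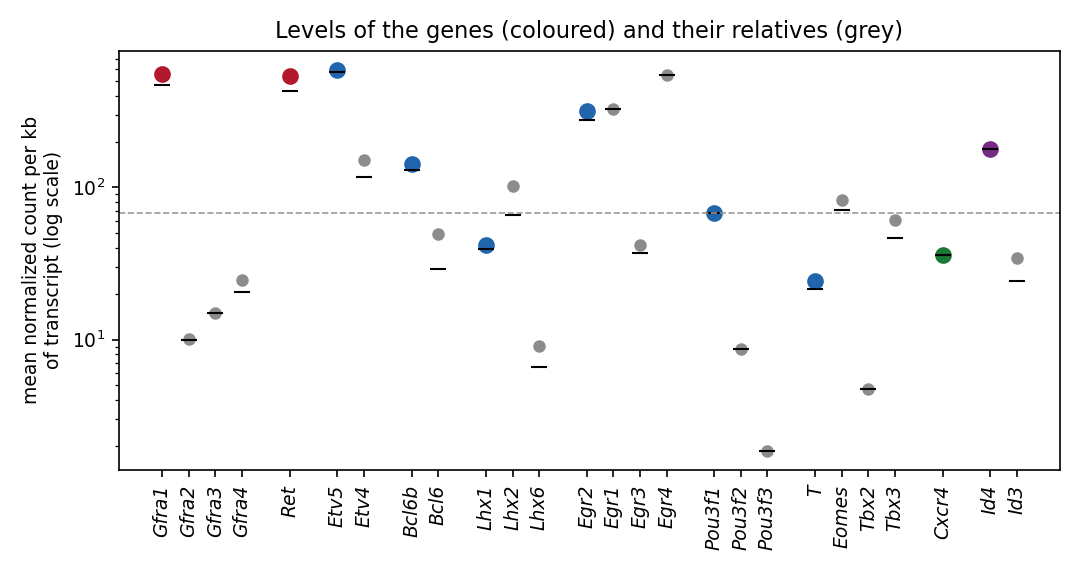
Mean normalized count per kb of transcript (log axis) for the 10 genes (coloured by role as receptor, regulator, chemokine receptor or HLH inhibitor) and their relatives (grey), averaged by the authors over both genotypes. Dots use the longest transcript, black dashes the summed exon length, and the dashed line marks the protein-coding median of 67.8. Gfra1 stands far above Gfra2, Gfra3 and Gfra4, while Egr4, Lhx2 and Eomes lie above Egr2, Lhx1 and T.

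None of the 10 genes passed the authors' test between CreER/flox and CreER/+ cells. In the authors' deposited table, a DESeq2 Wald test with Benjamini-Hochberg adjustment, 0 of 10 had an adjusted p under 0.05, against 5.36% of all 14853 genes. At an unadjusted p under 0.05 there was 1 gene of 10, Ret, against 19.7% of all genes. Of the log2 fold changes, 5 were above 0 and 5 below, with a median of 0.00048 beside 0.00071 over all genes. Their median size regardless of sign was 0.077, against 0.14 for the 10880 genes within the same range of mean counts. Counts were not matched within that range, and the median mean count of the 10 genes was 583, against 192 over all genes. How much of the difference in size follows from the counts was not tested. Values per library were not used here, so whether the samples of the groups overlap cannot be given, and no gene whose pattern over samples resembles a member could be named. Replicates are separate samples per the labels, which do not say that each came from its own animal, so p-values may measure technical spread. In bulk samples, fewer cells of a type and less RNA per cell cannot be told apart.

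Of the receptor genes, Ret (chr6:118151748-118197744) came nearest to the threshold. The tyrosine kinase transcript had a log2 fold change of -0.23 (SE 0.08) in the authors' deposited table, or 0.852 times the CreER/+ level, with a 95% interval of 0.759 to 0.955. Its unadjusted p was 0.0060 and its adjusted p 0.0798 in the authors' deposited table, so it passed at 0.1, as did 9.02% of all genes, and not at 0.05. A log2 fold change of 0.25 at this SE would have been called. For Gfra1 (chr19:58235581-58455946), the co-receptor that binds GDNF, the authors' deposited table gave -0.10 (SE 0.09, adjusted p 0.579), or 0.933 times with an interval of 0.828 to 1.05. Both receptor genes thus lay below 0, the interval of Ret left out 1, that of Gfra1 held it, and whether their changes differ from each other was not tested.

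The regulator genes induced by GDNF lay closer to 0. Etv5 (chr16:22381313-22439570) encodes an ETS factor without which mice lose their spermatogonial stem cells, and the authors' deposited table gave it -0.08 on the log2 scale (SE 0.08, adjusted p 0.653), or 0.949 times with an interval of 0.855 to 1.05. In the authors' deposited table Bcl6b (chr11:70224127-70229798), which encodes a BTB zinc finger repressor, was at 0.0022 (SE 0.11, adjusted p 0.995), with an interval of 0.858 to 1.17 times the CreER/+ level. The authors' deposited table placed Egr2 (chr10:67534469-67542188), a zinc finger gene of the immediate early type, at 0.05 (SE 0.08, adjusted p 0.788). Its interval ran from 0.931 to 1.15 times. Lhx1 (chr11:84517975-84525534), a LIM homeodomain gene, was at 0.08 (SE 0.18, adjusted p 0.868), and the POU factor gene Pou3f1 (chr4:124657646-124660655) at -0.05 (SE 0.14, adjusted p 0.895), both in the authors' deposited table. Pou3f1 stood at 0.091 once a fitted trend of the fold changes (with the length and GC content of transcripts and with abundance) had been removed.

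The remaining genes differ in role and in how well they were measured. Id4 (chr13:48261116-48266028), whose protein lacks a DNA-binding region and holds helix-loop-helix partners inactive, marks cells enriched for stem cell activity. Its log2 fold change in the authors' deposited table was -0.0013 (SE 0.10, adjusted p 0.996), with an interval of 0.873 to 1.14 times. Cxcr4 (chr1:128588199-128592299), the receptor for the chemokine CXCL12, had the largest fold of the 10 in the authors' deposited table, at 0.36 (SE 0.30, adjusted p 0.563). Its interval ran from 0.848 to 1.94 times. In the authors' deposited table T (chr17:8434423-8442496) was at 0.13 (SE 0.33, adjusted p 0.887), with an interval of 0.698 to 1.71 times. For the other 8 genes the 95% interval lay within 1.5-fold in both directions, also when a t distribution with 6 degrees of freedom replaced the normal.

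**Figure D2:**
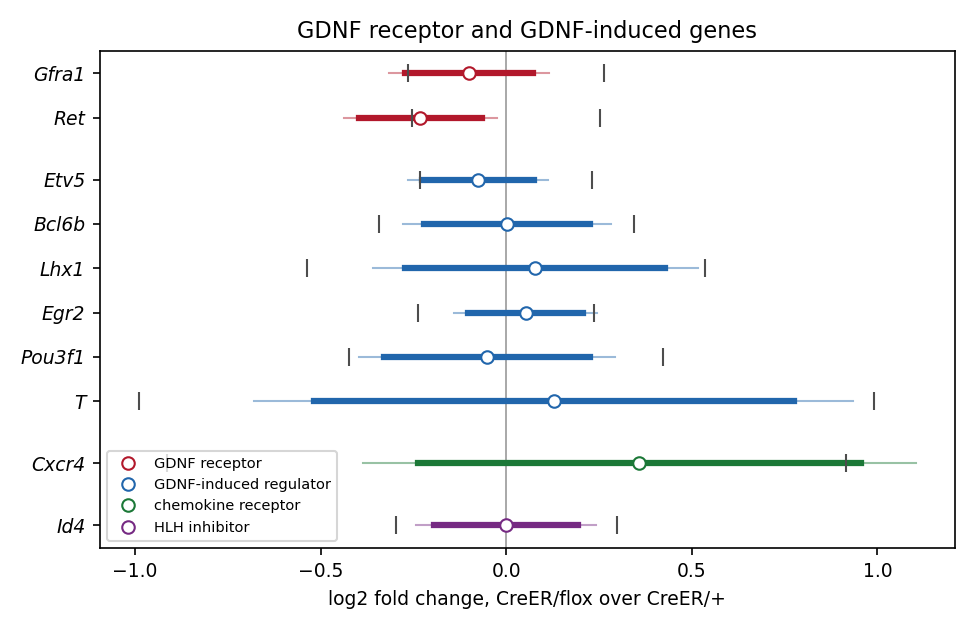
Log2 fold change of CreER/flox over CreER/+ for each of the 10 genes, from the authors' deposited table. Open circles are the estimates, thick lines 95% intervals from the normal distribution, thin lines 95% intervals from a t distribution with 6 degrees of freedom, and vertical ticks the size that would have been called at each gene's SE. No circle lies beyond its ticks, Ret at -0.23 is nearest to them, and T and Cxcr4 have the widest intervals.

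The precision behind these values followed the mean count. T had a mean normalized count of 49.6 and Cxcr4 of 64.8 in the authors' deposited table, against 2926 for Ret, 2586 for Gfra1 and 2353 for Etv5. A log2 fold change of 0.99 would have been needed to call T and 0.92 to call Cxcr4, against 0.26 for Gfra1, 0.23 for Etv5 and 0.24 for Egr2. The SEs were 0.868 (Egr2) to 1.21 (Gfra1) times the median of genes of like mean count. They were 2.22 to 4.47 times what counting error alone would give with libraries of equal depth, and the largest of these ratios were those of Ret (4.47) and Gfra1 (4.38). More of the error of the receptor genes thus came from beyond counting than for T (2.28) or Lhx1 (2.22). The ratio was also high for Etv5 (3.66), another gene of high mean count. Against genes of like mean count, the SE was only 1.21 times the median for Gfra1 and 1.18 times for Ret. How much of the contrast with T and Lhx1 follows from the mean count was not tested. The depth of each library is not known here.

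**Figure D3:**
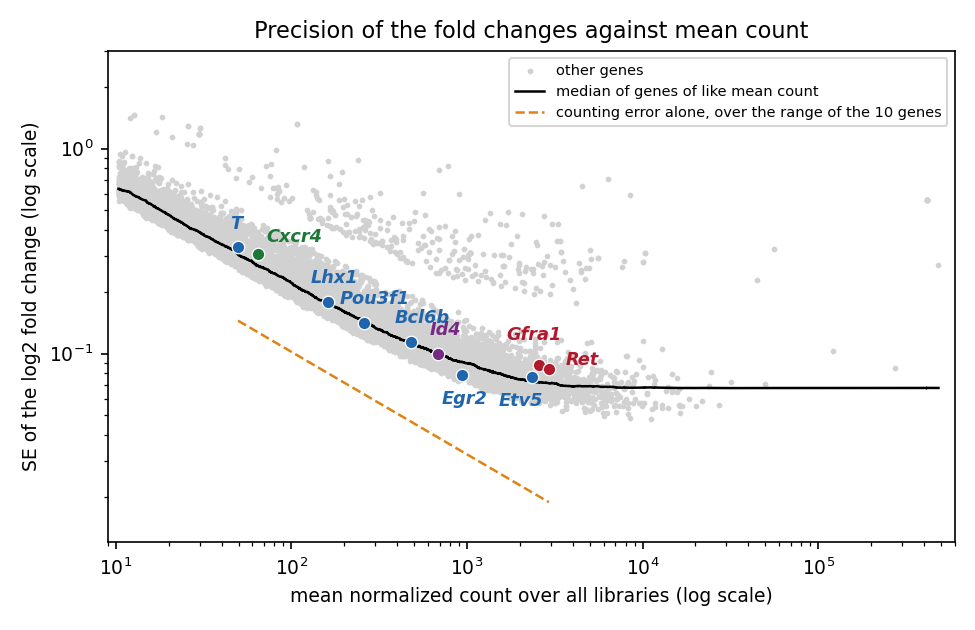
SE of the log2 fold change against the mean normalized count (both axes log), from the authors' deposited table. Grey dots are all other genes, the black line the running median SE of genes of like mean count, the dashed line the SE from counting error alone, and coloured dots the 10 genes. The genes follow the black line, with Gfra1 and Ret above it and Egr2 below it, and all lie above the dashed line.

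A stranded kit was used, but the sources used here do not give the strand setting of the authors' read counting. Antisense genes could therefore matter for 3 of the 10. Exons of Gfra1 share 416 bases with those of antisense Gm16277, exons of Pou3f1 share 330 with antisense Gm2164, and exons of Id4 share 171 with Gm49291 and 82 with A330033J07Rik. Of these antisense genes only A330033J07Rik had a row, where the authors' deposited table gave a log2 fold change of -0.01 (SE 0.28) and a mean count of 61.9. If the counting ignored strand, reads of such genes and of their partners cannot be told apart where their exons overlap.

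Of 80 measured genes in the lists around the receptor, 3 were called, against 5.36% of all genes. Of 6 measured ligands and receptors of the GDNF family, none was called (1 above and 5 below 0, median log2 fold change -0.14). In the authors' deposited table the smallest p values among them belonged to Gfra4 (-0.36, SE 0.32, adjusted p 0.592) and to Sdc3, a GDNF-binding syndecan (-0.36, SE 0.35, adjusted p 0.635). Gdnf itself had no row and was not analysed here. Of 37 measured genes that carry the signal from RET, 1 rose and none fell, against 1.94% of all genes called higher and 3.42% called lower, and the median was 0.01. The gene that rose was Yes1, a SRC family kinase (log2 fold change 0.38, SE 0.10, adjusted p 0.0137, or 1.30-fold in the authors' deposited table). Its relatives Fyn (-0.04, SE 0.06) and Src (-0.13, SE 0.10) were not called in the authors' deposited table.

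Of 10 further genes reported to respond to GDNF, 1 was called, Ccna2, which encodes cyclin A2 (0.37 with an SE of 0.12 in the authors' deposited table; adjusted p 0.0346), and the list's median was 0.13 with 8 above 0. Mycn, which encodes the transcription factor N-MYC, lay just outside the threshold in the authors' deposited table, at 0.31 (SE 0.10, adjusted p 0.0501), and was called at 0.0454 when genes with a mean count under 100 were left out of the adjustment. Nanos2, which encodes an RNA-binding protein that maintains the stem cell state, was at 0.18 (SE 0.25, adjusted p 0.757), and Ccnd2, of cyclin D2, at -0.12 (SE 0.06, adjusted p 0.280), both in the authors' deposited table. Of 16 measured ERK targets and feedback genes, 1 rose and none fell, against 1.94% of all genes called higher and 3.42% called lower. The median of these 16 was 0.09, with 9 above 0. The gene that rose was Dusp6, whose phosphatase inactivates ERK (0.24 with an SE of 0.07 in the authors' deposited table; adjusted p 0.0245). Spry2, a feedback inhibitor, was at 0.61 (SE 0.21, adjusted p 0.0589), whereas Etv4 was at -0.05 (SE 0.14, adjusted p 0.901), both in the authors' deposited table. Dusp4 went the other way from Dusp6 and Spry2 in the authors' deposited table, at -0.39 (SE 0.16, adjusted p 0.132), and was not called. The calls of Yes1, Ccna2 and Dusp6 ended with a t distribution, with the observed width of the statistics divided out, and with the same trend removed.

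None of the 13 measured relatives of the members was called (8 above 0, median 0.07). Eomes and Tbx2 were nearest to a call in the authors' deposited table, with Eomes at 0.24 (SE 0.12, adjusted p 0.263) and Tbx2 at -0.89 (SE 0.53, adjusted p 0.351). Of 4 measured niche ligands none was called (2 above and 2 below 0, median -0.34). Csf1, of colony-stimulating factor 1, was nearest to a call, where the authors' deposited table gave -0.94 with an SE of 0.35 (adjusted p 0.0917), followed by Fgf9 (0.45, SE 0.22, adjusted p 0.218). Cxcl12, the ligand gene of CXCR4, was listed in the authors' deposited table at -0.77 (SE 0.44, adjusted p 0.328) with a mean count of 22.2. Ackr3, the other CXCL12 receptor gene, had no row.

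**Figure D4:**
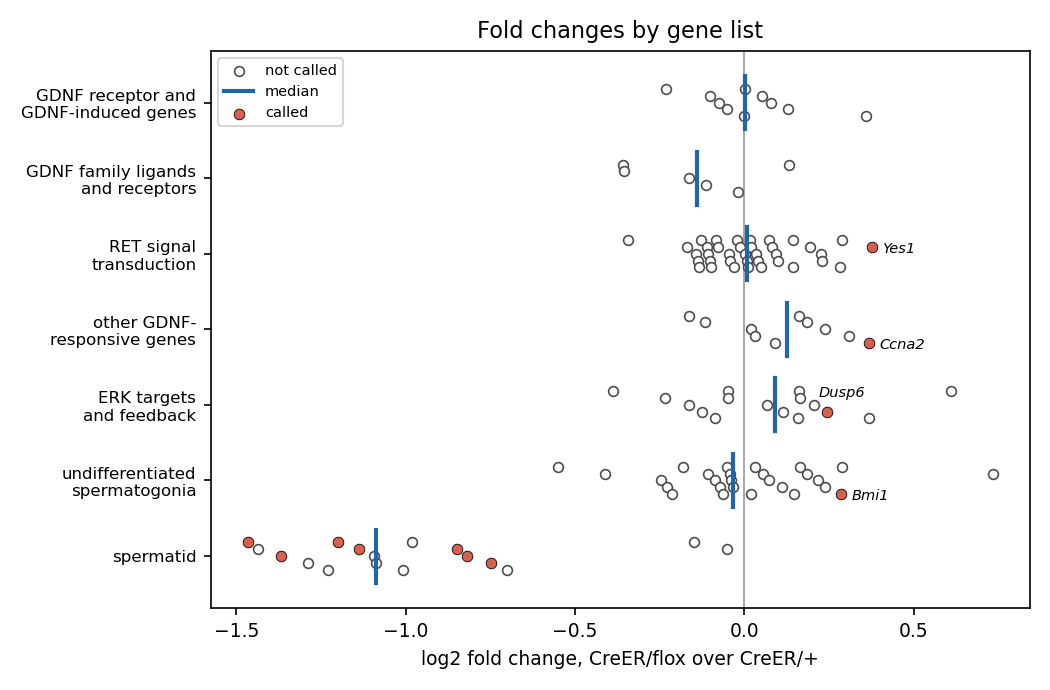
Log2 fold change of CreER/flox over CreER/+ for each measured gene of 7 lists, from the authors' deposited table. Filled circles passed an adjusted p of 0.05, open circles did not, and blue bars are medians. None of the 10 GDNF receptor and GDNF-induced genes is filled, the lists around the receptor hold Yes1, Ccna2 and Dusp6, and the spermatid genes lie at or below -0.05.

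Markers of the sorted cell type were measured beside those of other cells. All 27 undifferentiated spermatogonia markers had a row, but so did all 17 spermatid and all 7 differentiating spermatogonia markers. Mcam stood at 91.4 times and Zbtb16 at 56.6 times the level per kb of Kit. With the summed length of all exons these ratios were 139 and 93.2. The cells were sorted for high MCAM and no KIT, so the ratios are no independent check of identity. In the authors' deposited table, 1 of the 27 undifferentiated spermatogonia markers rose, the Polycomb gene Bmi1 (0.29, SE 0.07, adjusted p 0.00643), and none fell. Of all genes, 1.94% were called higher and 3.42% lower. Spermatid genes, by contrast, were below 0 in 17 of 17 cases, and 7 fell, with a median log2 fold change of -1.09 and mean counts of 21.8 to 2304. Among them in the authors' deposited table were Odf1, of the sperm tail (-1.14, SE 0.22, adjusted p 0.000125), and Spem1 (-1.47, SE 0.33, adjusted p 0.00144). The SE was 4.28 times the median of genes of like mean count for Akap4 and 3.50 times for Odf2. It was 1.62 times that median for Odf1 and 0.941 times for Hook1. Whether the spermatid genes vary together over libraries was not tested, so their shared sign is not 17 separate results. Of 7 markers of differentiating spermatogonia none was called (3 above and 4 below 0, median -0.09). The nearest in the authors' deposited table was Dmrtb1 (-0.91, SE 0.37, adjusted p 0.126), followed in the other direction by Sohlh2 (0.23, SE 0.10, adjusted p 0.175). Rows were found for 7 of 15 Sertoli, 1 of 8 Leydig, 5 of 8 myoid, 7 of 9 endothelial and 4 of 11 leukocyte markers. Of these Trf, a Sertoli marker, rose (0.62, SE 0.15, adjusted p 0.00255), and the smooth muscle actin gene Actg2 fell (-1.17, SE 0.37, adjusted p 0.0340), both in the authors' deposited table. The 7 Sertoli markers had a median log2 fold change of 0.0026, with 4 above and 3 below 0. That median is the value of Dmrt1 alone, whose mean count in the authors' deposited table was 3088. The median mean count of the 7 was 24.3, and whether the Dmrt1 reads came from Sertoli cells was not tested. The 5 myoid markers had a median of -0.17, with all 5 below 0. Of leukocytes, which also express Cxcr4, the markers Ptprc, Csf1r and Laptm5 had no row. The 4 leukocyte markers with a row had mean counts of 10.6 to 18.7 and a median log2 fold change of 0.47, with 3 above 0, as Cxcr4 was, and none called. The authors' deposited table gave 1.41 for Fcer1g (SE 0.59, unadjusted p 0.0179, adjusted p 0.146) and 0.90 for Cd3e (SE 0.48, adjusted p 0.282). For the remaining leukocyte markers with a row it gave 0.03 for Cd14 (SE 0.62, adjusted p 0.989) and -0.14 for Cd68 (SE 0.52, adjusted p 0.924). Every row of the table had a mean count above 10. With a t distribution with 6 degrees of freedom no gene of the table was called, so the calls of Bmi1, the spermatid genes, Trf and Actg2 ended too. Because every call ended under it, this setting does not tell firmer calls from weaker ones. The part of these other cells in the values of the members was not tested. The targeted gene Tert had a row in the authors' deposited table at 0.29 (SE 0.26, adjusted p 0.595). The sources used here do not say which part of Tert is deleted, so neither the labels nor the direction could be checked with it, and the direction (flox over CreER/+) was read from the table's name.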

How the data were processed

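Per the labels' protocols, a stranded kit for low amounts of total RNA was used after DNase treatment. Per the submitters' processing notes, the tools were DESeq2, Bowtie, Bowtie2 2.0.0-6, TopHat2 2.0.4 and Trim Galore, and the builds GRCm38 and mm10. The sources used here give neither the counting program nor the annotation. Mean counts are a signal the authors deposited, read from the header as normalized counts averaged over all libraries. Fold changes and SEs are the authors' deposited log2 values. The deposited score is the Wald statistic, within 2.58e-07 of the fold change over its SE in every row. The deposited adjusted p-values lay within 7.41e-06 of a Benjamini-Hochberg adjustment of the deposited p-values.

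A gene was called at a deposited adjusted p under 0.05. No model was fitted across libraries. Entrez IDs matched RefSeq (GRCm38.p6) for 14828 rows. Lengths came from GENCODE M21. Intervals are the fold change ± 95% normal quantiles of the SE. The SE of like mean count is the median over the 250 rows on either side. Smallest callable folds use the smallest called statistic, 3.00. Steps were tested on simulated data. Named genes were the members, Tert, up to 4 called genes per list, or up to 2 of smallest p where none was called, and relatives, ligands and receptors of the members. Mycn, Spry2, Dusp4, Zbtb16, Dmrt1, Fcer1g, Cd3e, Cd14, Cd68, Nanos2, Ccnd2, Fyn, Src and Dmrtb1 were named after their values were seen. So were uncalled genes beside called ones and the spermatid examples. The members and lists were chosen with earlier results of these data known. Alternatives changed the distribution, width, centring, filter, identical rows, threshold and minimum fold; removal of a fitted trend (with the length and GC content of transcripts and with abundance) over 13694 protein-coding genes was added after seeing the data. The software was matplotlib 3.10.9, scipy 1.17.1, numpy 2.4.6 and pandas 2.3.3 under Python 3.11.15.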

Additional observations from a re-analysis of the deposited data

How the results depend on the processing

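No member was called under any alternative run except an adjusted p under 0.1, where 1 was, Ret. The adjusted p of Ret ranged from 0.0732 to 0.777 over the alternatives, and it was 0.215 with the trend removed. Of 58 single-gene values under alternatives, 57 kept their direction and side of the threshold, and Pou3f1, at -0.05 as deposited, was at 0.091 with the trend removed; the cause was not tested. The called genes of the pathway lists numbered 3, against 0 with a t distribution, the width divided out, a threshold of 0.01, a minimum log2 fold change of 0.5 or the trend removed, 4 with a mean count of at least 100 required and 6 at 0.1. Of all genes, 796 were called, against 0 with a t distribution of the DESeq2 Wald statistic (1652 at an unadjusted p under 0.05), 5 with the width of 1.45 divided out, 264 at 0.01, 1340 at 0.1, 528 with the minimum fold and 378 with the trend removed. The median of the members stayed within 0.03 of 0. With a mean count of at least 100 required, T and Cxcr4 had no value. A count table that the labels also name was not analysed here. No paired analysis was possible because the comparison table holds no values per library; leaving out a replicate, another count tool and no filter on low counts were not run for that reason. The intervals of T and Cxcr4, the members of lowest mean count, allow changes of over 1.5-fold; how far depth sets them was not tested.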
